A study of Mus musculus with 16 samples.

Results

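Dner and 9 genes of the Notch pathway were examined in RNA-seq libraries labelled as mouse brain microglia. They were the ligand genes Dner, Jag1, Jag2 and Dll1, the receptor genes Notch1, Notch2 and Notch3, and the target genes Hes1, Hes5 and Heyl. Members were chosen by gene symbol, and all 10 were found among the 21878 mRNAs of the tables. The choice was made with the difference between EAE and PBS libraries already known, so that the fitted differences and calls of the 10 genes are a description and serve as no evidence.

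Experimental autoimmune encephalomyelitis (EAE) is a mouse model of multiple sclerosis. The EAE group held 8 wild-type mice that received myelin oligodendrocyte glycoprotein (MOG) peptide in complete Freund's adjuvant, with 200 ng of pertussis toxin on days 0, 2 and 7. The PBS group held 8 wild-type mice, for which the labels give PBS alone, so that peptide, adjuvant and toxin cannot be told apart. All were female C57BL/6 mice aged 8 weeks, and brains were taken 14 days after induction. The protocol names MOG residues 35 to 55, whereas the treatment field of the labels gives a last residue that runs from 55 in EAE 1 to 62 in EAE 8. By the authors' account, cells were sorted as CD11b+/CD45int. Each mouse gave 1 stranded total RNA library, named here by group and replicate number.

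In Notch signaling, a ligand on one cell binds a receptor on its neighbour. The receptor is cut by ADAM10 and then by gamma-secretase, and its freed intracellular part enters the nucleus, joins the DNA-binding protein RBPJ and a Mastermind protein, and switches on genes of the Hes and Hey families. In the brain the pathway is known for maintaining neural stem cells and for shaping glia and vessels. DNER is a transmembrane protein with EGF-like repeats, found mainly on neurons, Purkinje cells among them, and has been described as an atypical Notch ligand.

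The sequence before the start of Dner is shown because the account turns on that gene, and stretches of Hes5 because it is a textbook target of RBPJ. RefSeq promoter windows on GRCm38.p6 were found for 8 of the 10 genes, without Hes1 and Heyl. The 6 letters TGGGAA, the core of the RBPJ site, were searched on both strands in the 250 bases before each start, where TTCCCA is the same site on the other strand. Of all 32851 windows, 21.6% held at least 1 match and 2.77% held 2 or more. Hes5, at chr4:154960685-154960714 and chr4:154960829-154960858 (plus strand), held 2 matches, which begin 226 and 82 bases before the start. The RefSeq span of the Hes5 gene, 154960626 to 154962372, begins earlier, so that both matches lie within that span. None of the 7 other genes with a window held the 6 letters there. Rbpj, which is not one of the 10 genes, held 2 matches in 1 window and 1 in another that overlaps it. Both Hes5 matches follow in 30 bases each, and then the Dner window at chr1:84696222-84696471 (minus strand), with the matching letters in capitals.
Hes5, distal: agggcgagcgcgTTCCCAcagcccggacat
Hes5, proximal: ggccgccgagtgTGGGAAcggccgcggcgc
Dner: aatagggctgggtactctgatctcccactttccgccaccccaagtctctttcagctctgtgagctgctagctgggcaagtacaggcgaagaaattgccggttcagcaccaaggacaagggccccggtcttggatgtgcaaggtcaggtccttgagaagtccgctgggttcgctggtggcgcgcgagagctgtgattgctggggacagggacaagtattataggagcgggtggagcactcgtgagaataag
A match is a description of the letters and does not show that a factor bound there, and a window without one shows only that these letters are not in it.

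The libraries, described as sorted microglia, held RNA of many brain cell types, so that no level here can be assigned to microglia alone. Total counts ranged from 24587443 to 34184576 per library. Lists of marker genes were summed in FPKM, the count scaled by gene length and library total, and divided by the number of genes. This mean was 9.96 to 18.4 FPKM for 12 microglia genes, and it was higher in all 16 libraries for neurons (102 to 129), astrocytes (104 to 150) and oligodendrocytes (146 to 206) and 7 Purkinje cell genes (20.4 to 24.3). No marker was at 0 in every library. A set of 6 libraries, EAE 6, 7 and 8 and PBS 5, 7 and 8, were known from earlier results to be more alike than the rest, and no label names a batch. In these bulk libraries, fewer cells of a type and less RNA per cell cannot be told apart.

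**Figure D1:**
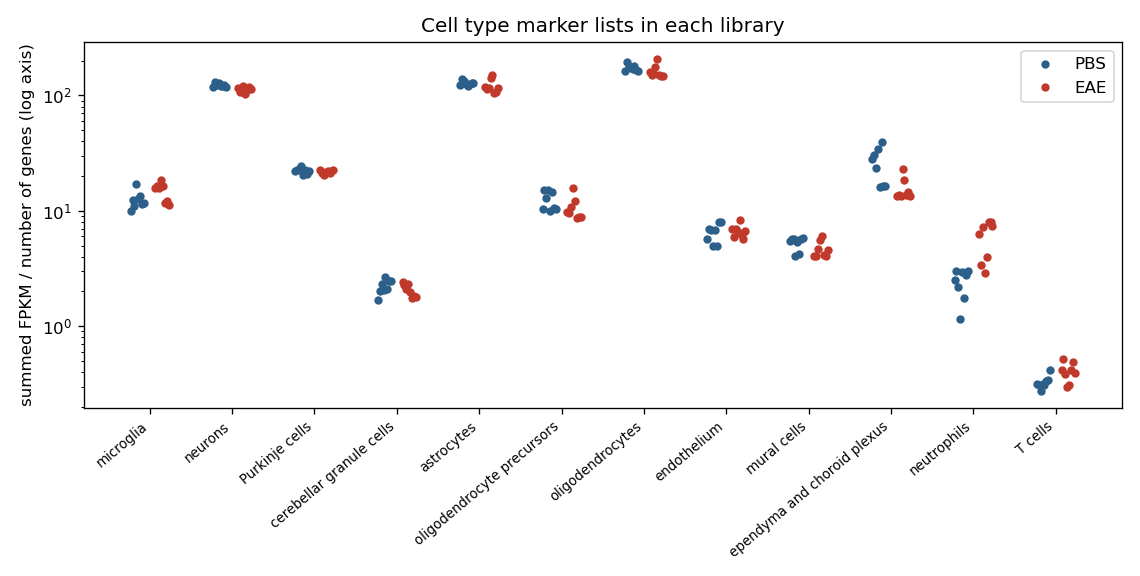
Summed FPKM of each cell type marker list divided by its number of genes, on a log axis, for the 8 PBS (blue) and 8 EAE (red) libraries. The lists for neurons, astrocytes and oligodendrocytes lie above 100 FPKM per gene in every library, and the microglia list lies between 9.96 and 18.4.

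Dner was the most abundant of the 10 genes and the one that stood apart between the groups. Its level was higher than that of 96.1% of the 19214 mRNAs detected in PBS libraries. In EAE libraries, Dner ranged from 40.3 to 51.4 FPKM with a median of 43.0. In PBS libraries it ranged from 48.8 to 56.3 FPKM with a median of 52.6. Thus 7 of the 8 EAE libraries lay below the lowest PBS library, and the groups overlapped only through EAE 4, which was at 51.4 FPKM. The share of all mRNAs separated to this degree is not given here, nor is it for such counts of other genes below. Of the EAE libraries, EAE 4 also had the highest marker sums for neurons (1216 FPKM), microglia (221 FPKM), oligodendrocyte precursors (94.5 FPKM) and ependyma with choroid plexus (138 FPKM). Its sums for neutrophils (23.1 FPKM) and T cells (2.07 FPKM) were the lowest. The mean was 43.7 ± 3.30 FPKM (SD, n = 8) in EAE mice and 52.9 ± 2.72 FPKM in PBS-treated mice.

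Differences were fitted on the raw counts of 17885 mRNAs in edgeR by a quasi-likelihood test, with TMM factors that scale each library by its typical mRNAs. An mRNA was called at a Benjamini-Hochberg adjusted p under 0.05. The fitted log2 fold change (log2FC, EAE over PBS) of Dner was −0.33 (SE 0.05), that is, 20.3% lower in EAE mice. With library totals in place of TMM it was −0.28. Dner was the 1 member called of 10, and it was called lower. Over all mRNAs, 1.76% were called lower, 0.66% were called higher and 2.42% were called in either direction. Because the members were chosen with this contrast known, nothing is read from their count. None of the 10 genes had both an adjusted p under 0.05 and a |log2FC| over 1, as 0.117% of mRNAs did. With 1 library left out, the log2FC of Dner ranged from −0.36 to −0.31. Within EAE 6, 7 and 8 and PBS 5, 7 and 8 its log2FC was −0.41 and it was called. Within the other 10 libraries the log2FC was −0.28 and Dner was not called, where 0.0286% of mRNAs were called lower and 0.0458% higher.

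**Figure D2:**
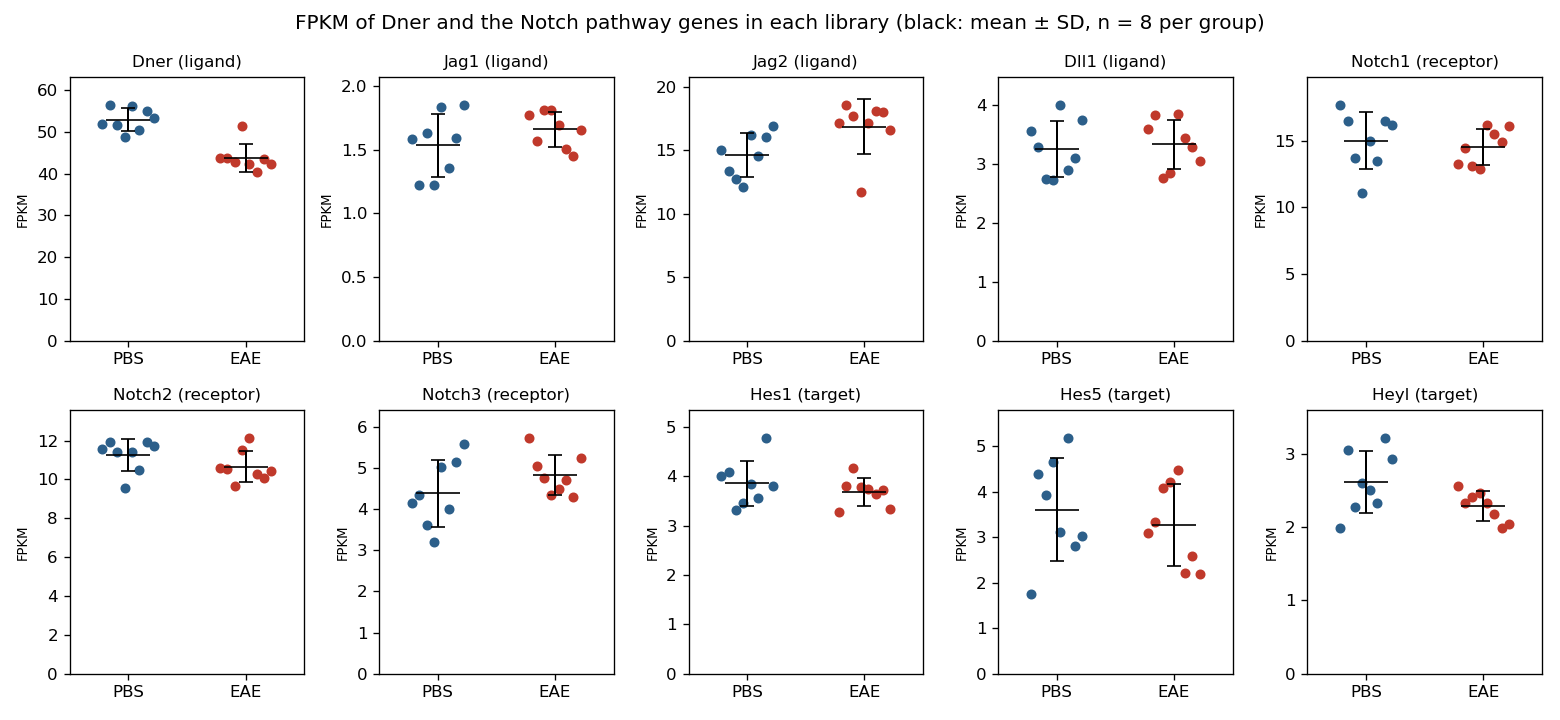
FPKM of each of the 10 genes in the 8 PBS (blue) and 8 EAE (red) libraries, 1 panel per gene with an axis from 0, with the group mean and SD in black. Dner lies at 48.8 to 56.3 in PBS and at 40.3 to 51.4 in EAE libraries, which overlap only through EAE 4. The ranges of the remaining genes overlap as well. For Jag2, 6 EAE libraries lie above the PBS range. For Heyl, 4 PBS libraries lie above the EAE range, and for Notch3, 4 PBS libraries lie below it.

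Negative log2FC values prevailed among the markers of several brain cell types, neurons among them. They were found for 8 of 9 astrocyte genes (median −0.21), 6 of 6 genes of oligodendrocyte precursors (−0.21), 5 of 6 of oligodendrocytes (−0.14) and 5 of 6 of cerebellar granule cells (−0.33). Of 10 neuron genes, 9 had a negative log2FC, with a median of −0.16 against 0.01 for all mRNAs tested, and 3 were called lower. Among these were Gad1, an enzyme of GABA synthesis (log2FC −0.53, SE 0.08), and the vesicle calcium sensor gene Syt1 (−0.28, SE 0.07). The summed level of the neuron list was 1024 to 1216 FPKM in EAE libraries and 1169 to 1292 FPKM in PBS libraries, with no gene at 0, and their part in the difference of Dner was not tested. Of 7 Purkinje cell genes, 0 were called and 4 had a negative log2FC, with a sum of 143 to 158 FPKM in EAE and 143 to 170 FPKM in PBS libraries. The list for cerebellar granule cells, with 0 of 6 genes called, had a sum of 10.6 to 14.5 FPKM in EAE and 10.2 to 16.1 FPKM in PBS libraries. For astrocytes, 2 of 9 genes were called lower and Gfap was called higher, with a sum of 936 to 1351 FPKM in EAE and 1085 to 1254 FPKM in PBS libraries. Oligodendrocyte genes summed to 878 to 1238 FPKM in EAE and 973 to 1175 FPKM in PBS libraries, and their precursors to 51.7 to 94.5 FPKM and 60.0 to 91.6 FPKM, with 0 of 6 genes called in each list. Of 6 genes of ependyma and choroid plexus, Ttr, the transthyretin gene, was called lower, and the sum was 80.2 to 138 FPKM in EAE and 96.5 to 238 FPKM in PBS libraries. Ttr alone averaged 80.0 FPKM in EAE and 142 FPKM in PBS libraries, so that this sum was mostly Ttr. Of the 6 genes, 4 had a negative log2FC and 2 a positive one, Foxj1 (0.43) and Rarres2 (0.38). Of 7 T cell genes 0 were called, with sums of 2.07 to 3.62 FPKM and 1.92 to 2.92 FPKM.

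Among libraries of the same group, where the EAE and PBS contrast plays no part, Dner varied with the neuron list. Each value was taken as log2 CPM, the count scaled by library total and TMM factor, minus the mean of its own group. Over the 16 libraries, Pearson's r was 0.63 and Spearman's rho 0.55, with two-sided permutation p-values of 0.0119 and 0.0321. After Benjamini-Hochberg adjustment over the 6 relations examined, these were 0.0478 and 0.0964. Without EAE 4 and EAE 5, the libraries farthest from the median of the neuron list, r was 0.51 (permutation p = 0.0751), so that passing the threshold rested on those libraries. Within the 6 more similar libraries r was 0.90, and within the other 10 it was 0.75. Dner, like the other genes of the 6 relations, was set against 1 list only. These values therefore do not show a relation particular to neurons.

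The mRNAs most like Dner in this variation were sought among 14759 mRNAs with a mean of at least 1 CPM. Over the 16 libraries, r with Dner was 0.91 for Rpn1, a subunit of the oligosaccharyltransferase, and 0.90 for Psap, the precursor of the saposins. It was 0.86 for Itm2b, a membrane protein, for Scg2, a secretogranin of dense core vesicles, and for Ppia, the cyclophilin A gene. The lowest r among these mRNAs was −0.92, for Pfkfb2. Dner itself departed most from its group's mean in EAE 4, by 0.23 in log2 CPM. Values of r without EAE 4 are not given here. Of the other members, Notch2 had the highest r with Dner, at 0.58, and Jag2 the lowest, at −0.42. Notch2 stood only at place 479 among the mRNAs ordered by r with Dner.

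The Jagged and Delta ligands did not share the pattern of Dner in these values. Jag2, a ligand with a known part in limb and immune development, was the next most abundant ligand and ranged from 11.7 to 18.5 FPKM in EAE libraries, with a median of 17.4. In PBS libraries Jag2 ranged from 12.1 to 16.9 FPKM, with a median of 14.8. In 6 of 8 EAE libraries Jag2 lay above the highest PBS library, whereas EAE 4 lay below the lowest. After TMM scaling, 4 of 8 lay above. The log2FC of Jag2 was 0.16 (SE 0.08) and it was not called. Without EAE 4 its log2FC was 0.22 and it was called higher.

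Jag1, a ligand with known functions in vessels and glia, was the least abundant of the 10 genes. It ranged from 1.45 to 1.81 FPKM in EAE libraries (median 1.68) and from 1.22 to 1.85 FPKM in PBS libraries (median 1.59). All EAE libraries lay within the PBS range. The log2FC of Jag1 was 0.06 (SE 0.09), but −0.22 within the 6 more similar libraries and 0.24 within the other 10. Dll1, the Delta ligand of the list, ranged from 2.75 to 3.85 FPKM in EAE libraries (median 3.36) and from 2.72 to 3.99 FPKM in PBS libraries (median 3.19). Here too, every EAE library lay within the PBS range in FPKM, whereas 1 lay below it after TMM scaling. The log2FC of Dll1 was −0.02 (SE 0.10) with TMM and 0.03 with library totals alone.

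Jag1 varied among libraries of the same group with 9 endothelial genes, with r = 0.60 and rho = 0.63 over 16 libraries. The permutation p-values were 0.0239 and 0.0179, or 0.0478 and 0.0964 after adjustment over the 6 relations. Without PBS 6 and EAE 5 r was 0.62 (permutation p = 0.0344). Within the 6 more similar libraries r was 0.22, and within the other 10 it was 0.33. The endothelial list itself had a sum of 50.8 to 74.4 FPKM in EAE and 44.3 to 72.2 FPKM in PBS libraries, with 0 of 9 genes called.

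**Figure D3:**
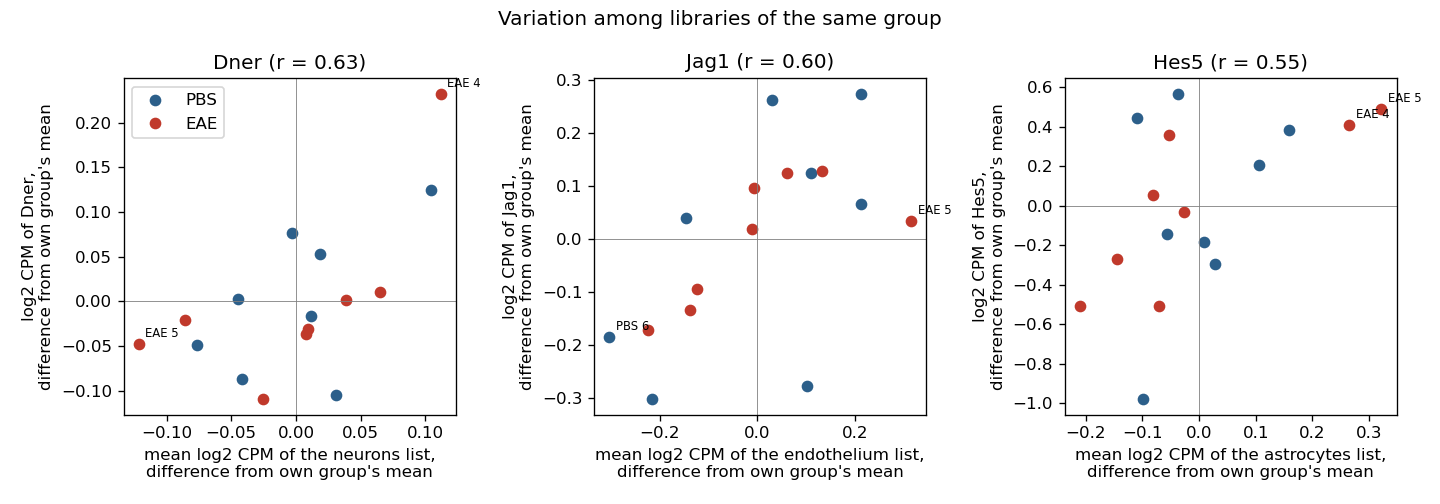
Log2 CPM of Dner, Jag1 and Hes5 against the mean log2 CPM of the neuron, endothelium and astrocyte lists, each as the difference from the mean of its own group, for 8 PBS (blue) and 8 EAE (red) libraries. The Pearson's r values are 0.63, 0.60 and 0.55, and the libraries named in each panel are the 2 farthest from the median of the list.

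The receptor genes differed little between the groups. Notch1, the receptor best known in T cells, endothelium and neural progenitors, ranged from 12.9 to 16.2 FPKM in EAE libraries (median 14.7) and from 11.1 to 17.6 FPKM in PBS libraries (median 15.6). All EAE libraries lay within the PBS range, and the log2FC was −0.10 (SE 0.08). Notch2, a receptor expressed by glia and myeloid cells among others, ranged from 9.64 to 12.1 FPKM in EAE libraries (median 10.5) and from 9.56 to 11.9 FPKM in PBS libraries (median 11.5). In FPKM, EAE 5 lay above the PBS range and the other 7 EAE libraries within it. After TMM scaling, 0 EAE libraries lay above the PBS range and 1 lay below it. The log2FC of Notch2 was −0.13 (SE 0.05).

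Notch3, the receptor of pericytes and vascular smooth muscle, ranged from 4.30 to 5.73 FPKM in EAE libraries (median 4.74). In PBS libraries it ranged from 3.21 to 5.59 FPKM (median 4.25), and 4 of these lay below the lowest EAE library. Its log2FC was 0.09 (SE 0.09), but −0.17 within the 6 more similar libraries and 0.26 within the other 10. None of the 3 receptor genes was called. The 9 mural cell genes, of which Vtn was called lower, had a sum of 36.3 to 54.1 FPKM in EAE and 36.9 to 52.0 FPKM in PBS libraries. Of the 9 genes, 5 had a negative log2FC and 4 a positive one, the highest being that of Acta2 (0.42).

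The target genes all had a negative log2FC and none was called. Hes1, a repressor that answers Notch in many tissues, ranged from 3.27 to 4.16 FPKM in EAE libraries (median 3.73). In PBS libraries it ranged from 3.32 to 4.77 FPKM (median 3.82). In FPKM 1 EAE library lay below the PBS range, and after TMM scaling 2 did. The log2FC of Hes1 was −0.12 (SE 0.09). Heyl, a Hey family repressor, ranged from 1.98 to 2.56 FPKM in EAE libraries (median 2.32) and from 1.99 to 3.21 FPKM in PBS libraries (median 2.55), where 4 libraries lay above the highest EAE library. Its log2FC was −0.25 (SE 0.10), and −0.51 within the 6 more similar libraries against −0.09 within the other 10.

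Hes5, the target gene with the RBPJ letters printed above, varied most. It ranged from 2.19 to 4.47 FPKM in EAE libraries (median 3.22) and from 1.75 to 5.17 FPKM in PBS libraries (median 3.52), from 91 to 289 counts. The SD was 27.7% of the mean in EAE and 31.3% in PBS libraries, against 5.14% to 18.5% for the other 9 genes in either group. The fitted log2FC was −0.19 with an SE of the same size, 0.19. The 3 lowest EAE libraries were EAE 6, 7 and 8. Among libraries of the same group Hes5 varied with the astrocyte list, with r = 0.55 and rho = 0.51 over 16 libraries (permutation p = 0.0191 and 0.0496, adjusted 0.0478 and 0.0991). Without EAE 4 and EAE 5 r was 0.39 (permutation p = 0.214). It was −0.25 within the 6 more similar libraries and 0.40 within the other 10. The remaining relations, of Notch3 and Heyl with mural cells and of Notch1 with endothelium, had r values of 0.36, −0.11 and 0.34, with adjusted permutation p-values of 0.269 to 0.707.

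**Figure D4:**
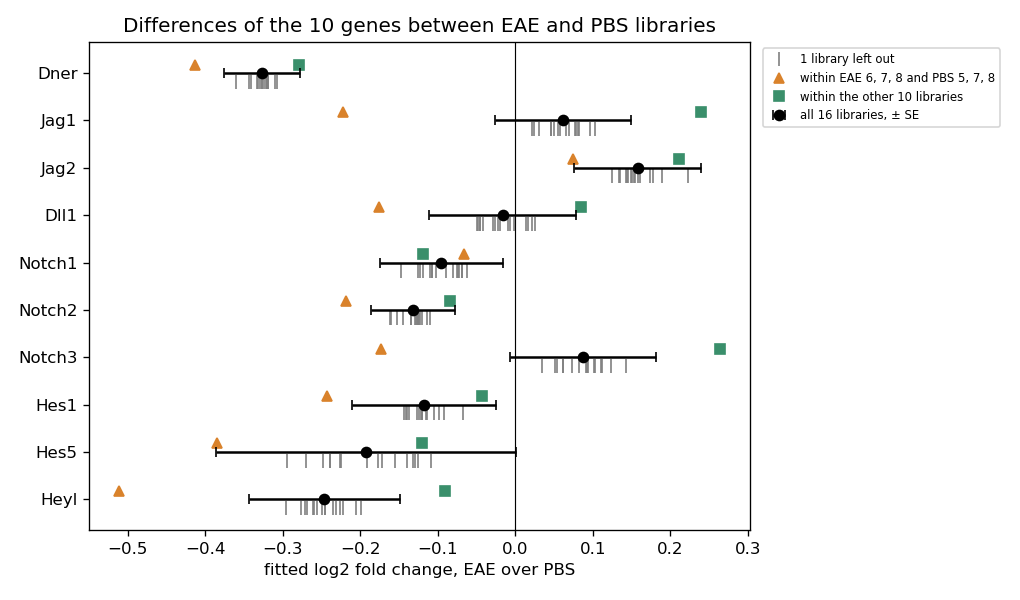
Fitted log2 fold change (EAE over PBS) of each of the 10 genes with all 16 libraries (black, ± SE), with each library left out (grey ticks), and within the 2 sets of libraries (orange triangles and green squares). Dner stays between −0.41 and −0.28, while Jag1, Dll1 and Notch3 fall on both sides of 0.

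Within EAE 6, 7 and 8 and PBS 5, 7 and 8, 3 of the 10 genes were called lower, Dner, Notch2 and Heyl, where 13.1% of all mRNAs were. None was called higher, where 11% of mRNAs were. In that set 9 of the 10 genes had a negative log2FC, Jag2 being the exception at 0.07. Over all 16 libraries 7 of the 10 had a negative log2FC, with a median of −0.11.

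Levels per length placed the genes in nearly the same order in both groups. In PBS libraries the means were 52.9 FPKM for Dner, 15.01 for Notch1, 14.6 for Jag2, 11.3 for Notch2, 4.39 for Notch3, 3.86 for Hes1, 3.60 for Hes5, 3.25 for Dll1, 2.61 for Heyl and 1.54 for Jag1. Dner exceeded Notch1 in all 16 libraries. Notch1 exceeded Jag2 in 4 of 8 PBS libraries, so that these neighbours could not be ordered there. In EAE libraries Notch1 exceeded Jag2 in 1 of 8, EAE 4, and the means were 14.5 FPKM for Notch1 and 16.9 FPKM for Jag2. Hes1, Hes5 and Dll1 were not separable either, since Hes1 exceeded Hes5 in 4 and Hes5 exceeded Dll1 in 4 of the 8 PBS libraries. Jag1 lay below Heyl in all 16.

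Beyond these 10 genes, 51 other genes of the pathway were taken from general knowledge, with earlier results of these data known, and all were tested. Rbpj alone was called, and it was higher in EAE mice. It encodes the DNA-binding protein that carries the Notch signal to its target genes. Over all mRNAs, 2.42% were called in either direction and 0.66% higher. From 1 call among 51 genes, nothing is read about the pathway as a whole. Rbpj ranged from 6.80 to 7.96 FPKM in EAE libraries, with a median of 7.53. In PBS libraries it ranged from 5.55 to 6.32 FPKM, with a median of 6.04. Every EAE library lay above every PBS library, for this gene of smallest p among the 51. The share of all mRNAs separated in this way is not given here. The log2FC was 0.27 (SE 0.05, edgeR adjusted p = 0.00669), with 7.52 ± 0.395 FPKM (SD, n = 8) in EAE mice and 6.03 ± 0.252 FPKM in PBS-treated mice. Its adjusted p in the edgeR test was at most 0.0184 when 1 library was left out. Such repeated fits on the same libraries are no support for the call of Rbpj. Within the 6 more similar libraries the log2FC was 0.33, and within the other 10 it was 0.22 (adjusted p = 0.200 in the edgeR test). The 12 microglia genes, of which Trem2 was called higher, had a sum of 120 to 203 FPKM in PBS and 134 to 221 FPKM in EAE libraries. The 8 neutrophil genes, 4 of them called higher, had a sum of 9.31 to 24.0 FPKM in PBS and 23.1 to 64.1 FPKM in EAE libraries, and the part of either list in the difference of Rbpj was not tested.

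No gene of the 51 was called lower in the main edgeR test, while 5 had a negative log2FC at an unadjusted p under 0.05, as had 1702 of all 17885 mRNAs, and DESeq2 called 1 lower. The median log2FC of the 51 was −0.03, with 19 positive and 32 negative values, against a median of 0.01 over all mRNAs. Of the 10 receptor cleavage genes, which include the ADAM proteases and gamma-secretase subunits, 0 were called and 9 had a negative log2FC, the lowest being that of Aph1b, a gamma-secretase subunit (−0.20, SE 0.07, edgeR adjusted p = 0.112). The 5 glycosylation genes, the 8 trafficking genes, the 7 corepressor genes, the 4 ubiquitination genes and Notch4 had 0 called. Of the 7 nuclear complex genes, Rbpj was the 1 called, and Kat2b, an acetyltransferase, had a log2FC of −0.14 (SE 0.05, edgeR adjusted p = 0.119).

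Among the 5 other targets, Nrarp, which is induced by Notch and limits it, came closest to a call. Its level was 4.99 to 8.90 FPKM in EAE libraries (median 5.68) and 6.55 to 10.04 FPKM in PBS libraries (median 7.81). In 5 of 8 EAE libraries Nrarp lay below the PBS range. The log2FC was −0.43 (SE 0.12, edgeR adjusted p = 0.0557), and DESeq2 gave an adjusted p of 0.0126. Without EAE 4 the adjusted p of Nrarp in the edgeR test was 0.00557. Hes7, a gene of the somite clock, was scarce, with 5 to 52 counts, and had a log2FC of −0.81 (SE 0.33, edgeR adjusted p = 0.197). Of the 4 other ligands, Dlk2, an atypical Delta-like protein, had the smallest p, with a log2FC of 0.19 (SE 0.08, edgeR adjusted p = 0.204).

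**Figure D5:**
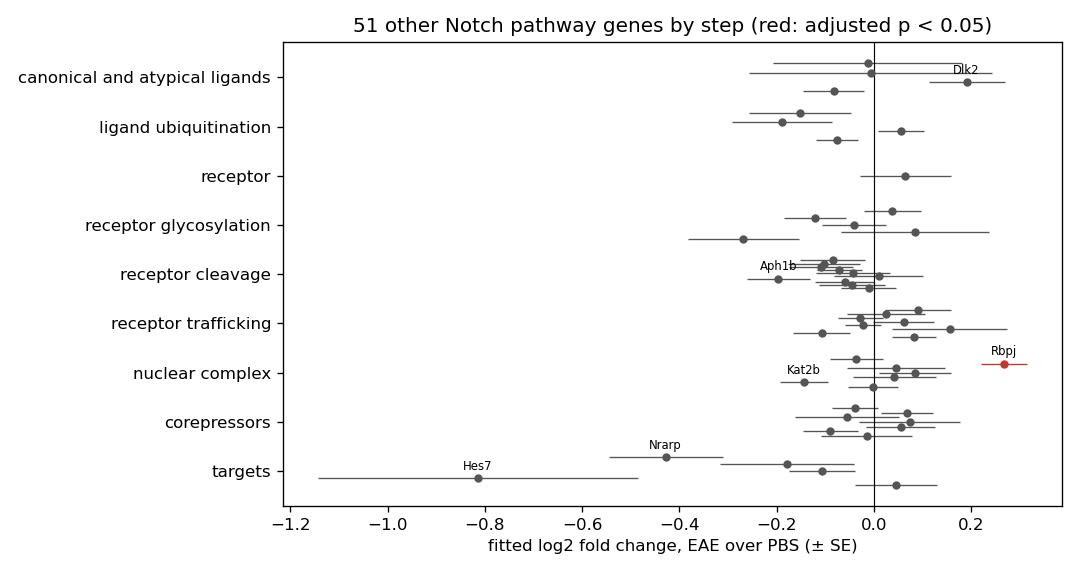
Fitted log2 fold change (EAE over PBS, ± SE) of 51 other Notch pathway genes, grouped by their step in the pathway, with the 6 genes of smallest p named. Rbpj, at 0.27, is the 1 gene with an adjusted p under 0.05 (red).

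By the GENCODE annotation of GRCm38, the build of the authors' alignment, Dner spans positions 84369839 to 84696221 on the minus strand of chromosome 1. Notch1 spans 26457903 to 26516663 and Jag1 137081456 to 137116644 on chromosome 2, both on the minus strand. Notch2 spans 98013527 to 98150361 on the plus strand of chromosome 3, and Heyl 123233556 to 123249875 on that of chromosome 4. On the minus strand, Jag2 spans 112907819 to 112929776 of chromosome 12, and chromosome 17 holds Dll1 at 15367354 to 15376872 and Notch3 at 32120820 to 32166852. Hes1 spans 30064384 to 30067796 on the plus strand of chromosome 16. Hes5 spans 154960923 to 154962371 on the plus strand of chromosome 4, and Rbpj 53466152 to 53657362 on the plus strand of chromosome 5. None of the 10 genes overlaps a protein-coding gene, and 5 of them, Dner, Notch1, Notch3, Dll1 and Hes5, overlap a noncoding gene on the other strand, as does Rbpj. The strand setting of the counting is not given in the sources used here.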

How the data were processed

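By the authors' account, RNA-seq was performed on sorted microglia (CD11b+/CD45int) of 8 mice with EAE and 8 given PBS. After read filtering, the authors used HISAT2 2.1.0 for alignment to GRCm38 and HTSeq 0.11.2 for counting, versions as in the submitters' processing notes. They deposited raw counts per mRNA, and FPKM values that the authors scaled by gene length and library total. Groups were taken from the sample labels.

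Differences were tested here on the counts with edgeR 4.0.16 in R 4.3.3 (TMM, quasi-likelihood, two-sided, no covariate besides group), leaving out mRNAs whose counts over the 16 libraries summed to less than 16. All 10 genes passed this filter, with at least 91 counts per library. FPKM served to compare levels between genes and to give the range of each gene in each group. Relations across libraries used log2 CPM with a prior count of 2 and 100000 permutations within groups. On simulated counts for this comparison (17784 genes), 80.0% of genes with a |log2FC| of 0.5 were recovered, and 6.38% of calls were false. The changed genes were drawn from mRNAs with higher counts, and the simulation held no library sets. Smaller differences, such as that of Dner, were not simulated. DESeq2 1.42.0 and other settings were alternatives.

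The members and gene lists were chosen with earlier results of these data known. Named pathway genes were those called or, with fewer than 6 called, the 6 of smallest p, and the mRNAs named as most like Dner were the 5 with the highest r. Each library is 1 mouse.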

Additional observations from a re-analysis of the deposited data

Results flagged for a closer look

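Among 20 groups examined (10 genes in 2 groups of 8 libraries), 2 held a library whose gap to its nearest neighbour was a larger share of the group's range than Dixon's critical value for 8 libraries, which chance gives in about 1 of 20 groups. Both were EAE 4. Its Dner level was 182.9 CPM, above the next EAE library at 156.8 CPM. Its Jag2 level was 56.6 CPM, below the next EAE library at 81.4 CPM. Jag2 was called higher in EAE mice in 1 of the 27 alternative fits, the one without EAE 4.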

How the results depend on the processing

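Over the 10 genes and 27 alternative fits, 267 of 270 log2FC values stayed within 1 SD of the spread between libraries. The 3 others were those of Notch3, Jag1 and Heyl within the 6 more similar libraries.

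Within the other 10 libraries alone, 0 members and 0 of the 51 pathway genes were called higher or lower, Dner and Rbpj included. Both genes were chosen or listed with results of this contrast known, so that their calls in repeated fits are no support. Within EAE 6, 7 and 8 and PBS 5, 7 and 8, 3 members were called lower, and 7 of the 51 pathway genes were called higher and 6 lower, where 11% and 13.1% of all mRNAs were. DESeq2, the edgeR exact test, the term for the library sets and the replicate block each called 1 pathway gene lower, against 0. With 1 library left out, the pathway genes called lower numbered 0 to 3 and the members called higher 0 to 1, the higher number in both cases without EAE 4.

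Over all mRNAs, 118 were called higher and 315 lower. DESeq2 called 299 and 611, the exact test 260 and 485, and the term for the library sets 242 and 526. Within the 6 more similar libraries 1896 and 2251 were called, and 8 and 5 within the other 10. Library totals without TMM, added after the data were seen, gave 226 and 103. With 1 library left out, 39 to 502 were called higher (without EAE 2 and EAE 4) and 104 to 815 lower (without PBS 2 and EAE 4). The cause was not tested.

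Replicate numbers did not pair the libraries, since the same-numbered libraries correlated at −0.22 to 0.57 and 2 of the 8 EAE libraries matched their own number best. With the replicate block, 150 mRNAs were called higher and 367 lower, and the call of Dner was the same.

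Of the 6 relations, 3 had an adjusted permutation p under 0.05. On log2(FPKM + 0.1), r was 0.61 for Dner, 0.54 for Hes5 and 0.61 for Jag1, each with an adjusted p of 0.0509. Without the 2 farthest libraries r was 0.51, 0.39 and 0.62, and within the other 10 libraries 0.75, 0.40 and 0.33. Within the 6 more similar libraries r was 0.90, −0.25 and 0.22. In none of these settings was an adjusted permutation p under 0.05. The 6 more similar libraries allow few permutations within groups, so that the threshold could hardly be passed there. Even Notch1 with endothelium, at r = 0.98 in that set, had an adjusted permutation p of 0.166. For Heyl with mural cells, r turned from −0.11 to 0.10 within the 6 more similar libraries.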
